A study of Mus musculus with 8 samples.

Results

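Genes for the secretory proteins of the seminal vesicle were followed in bulk RNA-seq of the mouse prostate, from normal tissue through prostatic intraepithelial neoplasia (PIN, atypical cells still inside the ducts) to prostatic adenocarcinoma (PCa). The 9 genes *Svs2*, *Svs3a*, *Svs3b*, *Svs4*, *Svs5*, *Svs6*, *Sva*, *Pate4* and *Spinkl* were taken by symbol from the 27036 genes of the count table, and all 9 passed the filter on low counts. They were chosen by name with their expression values across these groups known from earlier results, so the members count as selected on their fold changes. Their differences between groups are descriptions, and where a count of members called is given, nothing is read from it. There were 3 WT control libraries, 3 PIN libraries and 2 PCa libraries, each taken here to come from a different animal. All mice carried Osr1Cre/+ and the R26mTmG fluorescent reporter, with the WT controls given as R26mTmG/+:Osr1Cre/+ in a figure legend of the study. In the mice with PIN and PCa a human transgene at the Rosa26 locus is switched on by Cre recombinase in cells of the Osr1 lineage, with the reporter on the other allele. The colony had mixed C57BL/6 and 129S1/SvImJ ancestry, and the PIN and PCa pieces were checked under the microscope to hold mostly atypical or tumor cells. The study describes the controls as matched in sex and age. The ages of these animals are not given in the sources used here. The study reports that PCa lesions start at a later age than PIN lesions in these mice. Age may therefore differ between the PIN and PCa libraries, and it cannot be told apart from the stage. The human transgene is not part of the mouse genome to which the reads were aligned, so its level was not measured.

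The seminal vesicle is an androgen-dependent gland that grows from the Wolffian duct, whereas the prostate grows from the urogenital sinus. Its epithelium secretes the bulk of the mouse ejaculate, including the SVS proteins that transglutaminase 4 of the prostate (TGM4) crosslinks into the copulatory plug. SVS2 is the main substrate of that reaction, SVS4 to SVS6 are small secreted proteins, and SVA, PATE4 and SPINKL are secreted proteins of other families.

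The 6 *Svs* genes lay within 98.5 kb of chromosome 2, in mm9 coordinates, with *Svs2* (chr2:164061665-164064202), *Svs3b* and *Svs4* on the minus strand and *Svs3a*, *Svs6* and *Svs5* (chr2:164158476-164160132) on the plus strand. The start of the coding sequence shows how alike the genes of the cluster are. The first 54 coding bases, from the mm9 transcripts, follow 5′ to 3′, with capitals at the 16 positions where all 6 genes carried the same base. The *Svs3b* sequence was identical to that of *Svs3a* over these bases.
Svs2 coding start: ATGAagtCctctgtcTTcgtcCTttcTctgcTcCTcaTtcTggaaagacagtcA
Svs3a coding start: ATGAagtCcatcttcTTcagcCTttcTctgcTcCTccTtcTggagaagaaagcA
Svs4 coding start: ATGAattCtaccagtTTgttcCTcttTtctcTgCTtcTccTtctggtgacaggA
Svs5 coding start: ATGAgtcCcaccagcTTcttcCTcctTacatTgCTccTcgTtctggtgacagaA
Svs6 coding start: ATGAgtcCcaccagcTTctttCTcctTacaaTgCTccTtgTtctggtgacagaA
*Svs2* and *Svs3a* shared 41 of the 54 bases, *Svs4* and *Svs5* shared 42, and *Svs5* and *Svs6* shared 51. Between the genes *Svs2*, *Svs3a* and *Svs3b* and the genes *Svs4*, *Svs5* and *Svs6*, 23 to 30 bases were the same. Over the whole coding sequence *Svs3a* and *Svs3b* were 98.7% identical, at 788 of 798 aligned positions. *Svs5* and *Svs6* were 54.4% identical over theirs. A stretch of 50 bases found in one transcript was also found in the other for 41.2% of *Svs3a* and 39.3% of *Svs3b*, so the division of reads between this pair is uncertain, and no other pair of the 6 *Svs* genes shared such a stretch.

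The promoters of these genes are shown because 2 pairs, *Svs3a* with *Svs3b* and *Svs5* with *Svs6*, were nearly the same in sequence, and their transcript levels can be set beside that. RefSeq windows of GRCm38.p6, reaching 250 bases before and 50 bases after the start, were found for 7 of the 9 members. The 100 bases upstream of each *Svs* start follow, 5′ to 3′ along the gene, with capitals at TATAAA (the core promoter box that positions the start), AGAACA (a core element of steroid hormone response) and GATAAG (a motif of zinc finger factors of the GATA family), each searched on both strands.
Svs2 promoter, chr2:164238342-164238441, minus strand: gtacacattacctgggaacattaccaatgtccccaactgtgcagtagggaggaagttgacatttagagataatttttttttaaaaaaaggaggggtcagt
Svs3a promoter, chr2:164289167-164289266, plus strand: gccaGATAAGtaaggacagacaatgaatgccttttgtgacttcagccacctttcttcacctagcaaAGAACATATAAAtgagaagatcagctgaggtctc
Svs3b promoter, chr2:164256644-164256743, minus strand: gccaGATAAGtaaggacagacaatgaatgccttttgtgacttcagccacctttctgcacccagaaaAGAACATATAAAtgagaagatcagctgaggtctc
Svs4 promoter, chr2:164278308-164278407, minus strand: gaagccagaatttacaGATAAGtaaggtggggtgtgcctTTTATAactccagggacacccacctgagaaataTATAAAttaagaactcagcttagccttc
Svs5 promoter, chr2:164332665-164332764, plus strand: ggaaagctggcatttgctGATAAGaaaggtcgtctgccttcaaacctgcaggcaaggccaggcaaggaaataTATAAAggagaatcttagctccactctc
Svs6 promoter, chr2:164316651-164316750, plus strand: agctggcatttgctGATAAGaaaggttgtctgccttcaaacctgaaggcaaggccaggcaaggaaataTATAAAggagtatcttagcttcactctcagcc
In the full windows *Svs3a* and *Svs3b* were the same at 293 of 300 positions (97.7%), and *Svs5* and *Svs6* at 285 of 296 (96.3%), whereas other pairs matched at 29.4% to 39.3%. TATAAA began 28 bases before the start in *Svs3a*, *Svs3b*, *Svs4* and *Svs5* and 32 bases before it in *Svs6*. Within these 100 bases TATAAA was present in 5 members against 5.56% of all 32851 promoters, and GATAAG in the same 5 members against 2.32%. AGAACA directly preceded TATAAA in *Svs3a* and *Svs3b*, and lay in the last 100 bases of 6.33% of all promoters. These matches describe letters in a window and not bound sites, and the near-identical pairs are not independent of each other.

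Before the members are compared, the WT libraries have to be told apart. Total counts ranged from 21751803 to 29730420 per library. The 9 members took 318912 counts in WT 1, or 1.47% of that library (95% Wilson interval 1.46% to 1.47%), but 16 counts in WT 2 and 21 counts in WT 3. Reads were not counted by molecule, so such intervals cover counting error only. The labels give WT 1 a library number far from those of WT 2 and WT 3, and all PIN and PCa libraries carry numbers of another series, and if they mark batches of preparation, these cannot be told apart from the condition wherever WT is compared. *Svs1*, a seminal vesicle gene on chromosome 6, was at 217 CPM (reads of the gene relative to the whole library, scaled by the trimmed mean of M-values, TMM) in WT 1, and at most at 0.0686 CPM in any other library. *Sbp*, for the spermine-binding protein, was not taken as a gene of the seminal vesicle or duct. It was at 9552 CPM in WT 1 and at 0.0906 and 0 CPM in the other WT libraries. The Wolffian duct genes *Pax2* and *Emx2* were at 2.47 and 5.69 CPM in WT 1, against at most 0.0453 and 0.329 CPM in WT 2 and WT 3. Whether WT 1 held seminal vesicle or duct tissue was not tested, and the comparisons of the members with WT are given with and without it. In bulk tissue, fewer secreting cells and less RNA per cell cannot be told apart.

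Summed over the 9 genes, the members were higher in the 2 PCa libraries than in the 3 PIN libraries, although not each of them in each library. The sum was 122.9, 70.4 and 131.7 CPM in PIN 1, PIN 2 and PIN 3, and 4432 and 1266 CPM in PCa 1 and PCa 2. The WT libraries held both extremes, with 15766 CPM in WT 1 and 0.725 and 0.769 CPM in WT 2 and WT 3. The members thus made up 0.585% of all counts in PCa 1 (0.582% to 0.588%) and 0.151% in PCa 2 (0.149% to 0.153%), against 0.00725% to 0.0125% in the PIN libraries.

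**Figure D1:**
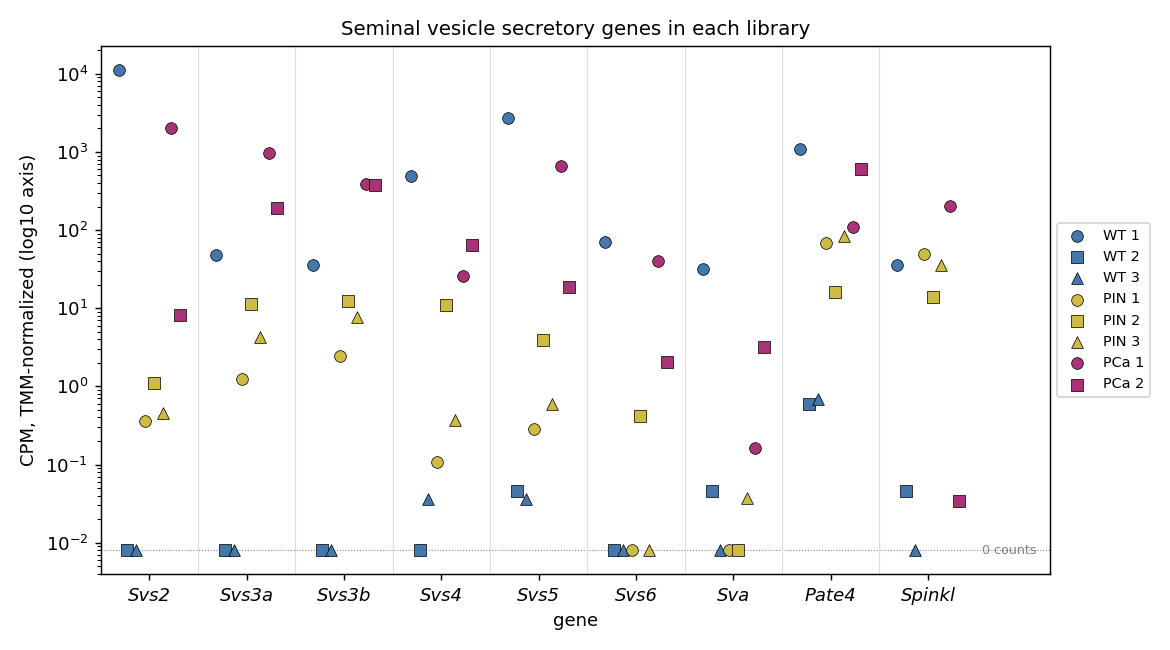
Level of each of the 9 genes in each library, on a log axis of CPM, with 1 point for each library coloured by group and libraries without a count marked as such. For *Svs2* the points span 0 to 11211 CPM within WT alone, while for 8 of the 9 genes both PCa points lie above all 3 PIN points, as they do for 21.1% of all genes tested.

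*Svs2*, the main structural protein of the plug, was at 11211, 0 and 0 CPM in the WT libraries, at 0.360, 1.10 and 0.452 CPM in the PIN libraries and at 2026 and 8.23 CPM in the PCa libraries. In WT 1 it was the gene with rank 3 by counts, in PCa 1 it had rank 17 and in PCa 2 rank 9224. WT 1 and PCa 1 stood far above all others, the PCa and PIN values did not overlap, and WT enclosed both.

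*Svs3a* and *Svs3b*, near-copies that are related to *Svs2*, behaved differently. *Svs3a* was at 47.6, 0 and 0 CPM in WT, at 1.26, 11.4 and 4.29 CPM in PIN and at 972 and 190.5 CPM in PCa. *Svs3b* was at 35.7, 0 and 0 CPM in WT, at 2.48, 12.4 and 7.72 CPM in PIN and at 385 and 379.9 CPM in PCa. They were the only 2 members with both PCa libraries above all WT libraries, WT 1 included, which was so for 17.7% of all genes. PCa 1 had 20.4 times the *Svs3a* level of WT 1 but 0.181 times its *Svs2* level.

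The small secreted proteins of the cluster followed *Svs2* in WT and varied in the tumors. *Svs4* was at 488, 0 and 0.0366 CPM in WT, at 0.108, 11.2 and 0.377 CPM in PIN and at 25.6 and 65.1 CPM in PCa. *Svs5* was at 2746, 0.0453 and 0.0366 CPM in WT, at 0.288, 3.93 and 0.603 CPM in PIN and at 666 and 18.9 CPM in PCa. *Svs6*, its neighbour with the near-identical promoter, was at 71.2, 0 and 0 CPM in WT, at 0, 0.413 and 0 CPM in PIN and at 40.3 and 2.02 CPM in PCa. For all 3 genes the PCa values lay above the PIN values without overlap, which was so for 21.1% of all genes. Of these, only *Svs4* was higher in PCa 2 than in PCa 1, by 2.55 times, whereas *Svs5* was higher in PCa 1 by 35.2 times.

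Outside the cluster the 3 remaining members, *Sva* (chr6:41988393-41992850, plus strand), *Pate4* (chr9:35414678-35419520, minus strand) and *Spinkl* (chr18:44326012-44334727, minus strand), differed from it and from each other. *Sva*, for a secreted protein related to the prolactin-inducible protein PIP, was at 31.5, 0.0453 and 0 CPM in WT, at 0, 0 and 0.0377 CPM in PIN and at 0.161 and 3.19 CPM in PCa. With 638 counts in WT 1, 93 in PCa 2, 5 in PCa 1 and at most 1 elsewhere, it was the member with the fewest counts in PCa 1, while in PCa 2 *Svs6* and *Spinkl* had fewer. *Pate4*, for a small secreted protein of the PATE family, was at 1100, 0.589 and 0.695 CPM in WT, at 68.6, 15.9 and 82.9 CPM in PIN and at 110.5 and 598 CPM in PCa. Its lower PCa library was only 1.33 times its highest PIN library. *Spinkl*, for a member of the Kazal-type inhibitor family that binds sperm, was at 35.7, 0.0453 and 0 CPM in WT, at 49.8, 14.1 and 35.3 CPM in PIN and at 205.6 and 0.0343 CPM in PCa. It was the only member whose PCa values enclosed the PIN values, since PCa 1 held 6388 counts and PCa 2 a single 1. A single count is below the 3 counts, 0.103 CPM in PCa 2, that a count of 0 still allows.

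The fitted differences were large, and so were their errors. For PCa against PIN the log2 fold change was 10.62 ± 4.65 (SE, 2 against 3 libraries) for *Svs2*, 6.68 ± 2.55 for *Svs3a*, 5.67 ± 2.23 for *Svs3b* and 7.73 ± 3.73 for *Svs5*. *Svs4*, *Pate4* and *Spinkl* had the smallest values, at 3.54 ± 2.90, 2.67 ± 2.41 and 1.64 ± 2.52. Without PCa 1 the value fell to 3.69 for *Svs2*, 3.56 for *Svs5* and 3.81 for *Svs6*, and without PCa 2 that of *Pate4* fell to 1.01, while *Svs3b* stayed between 5.26 and 6.23 whichever library was left out. *Spinkl* turned to −9.71 without PCa 1. Without PIN 2 the value rose to 7.53 for *Svs4* and 12.13 for *Svs6*. All 9 fold changes were above 0 with all libraries, with a median of 6.64 against 0.07 over the 14034 genes tested. None of the 9 was called by the edgeR quasi-likelihood test (absolute log2 fold change above 1 and adjusted p under 0.05). That test gave an unadjusted p under 0.05 for 2 members and for 3205 of the 14034 genes tested. Of all genes, 5.72% were called in this comparison, and 2.55% were called higher in PCa. Both PCa libraries lay above all PIN libraries for 8 of 9 members and for 21.1% of all genes. The members were chosen with this contrast in view, so nothing is read from these counts. DESeq2 called none of the members either, but gave no adjusted p for 8 of them in each comparison.

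Against WT the sign of the difference depended on WT 1 for most members. With all libraries the PIN to WT log2 fold change was −12.50 ± 4.89 for *Svs2*, −5.38 ± 3.02 for *Svs4* and 1.47 ± 2.34 for *Spinkl*, the only member above 0. The PCa to WT value was −1.88 ± 3.62 for *Svs2*, −1.42 ± 3.18 for *Svs5*, 5.20 ± 2.40 for *Svs3a* and 5.01 ± 2.17 for *Svs3b*, with 3 of 9 members above 0. No member was called in either comparison by edgeR or DESeq2, with 4 members at an unadjusted edgeR p under 0.05 for PIN and 0 for PCa. Over all genes edgeR called 0% for PIN against WT (0 of 14034, with 492 at an unadjusted p under 0.05 and 39 called by DESeq2). For PCa against WT edgeR called 8.54% of them (4.35% higher in PCa), with 3866 genes at an unadjusted edgeR p under 0.05. Groups did not overlap with PCa higher for 2 of 9 members and for 17.7% of genes.

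Without WT 1, 8 members were above WT 2 and WT 3 in both PCa libraries, and *Spinkl* was above them in 1. The same held for both PCa libraries in 22.5% of the 13899 genes tested without WT 1, and nothing is read from the members' count. WT 2 and WT 3 together held 0 counts of *Svs2*, *Svs3a*, *Svs3b* and *Svs6*, and 3 counts over both libraries correspond to 0.0607 CPM. Measured against that floor, the PCa mean was at least 16740-fold higher for *Svs2*, at least 9572-fold for *Svs3a*, at least 6300-fold for *Svs3b* and at least 349-fold for *Svs6*. PCa 1 carried most of these means but for *Svs3b*, and PCa 2 alone was at least 135.5-fold, 3136-fold, 6254-fold and 33.3-fold higher in the same order. *Pate4*, with 32 counts in those libraries, had a log2 fold change of 9.09 ± 1.35 for PCa and 6.43 ± 1.20 for PIN. By edgeR *Svs3a*, *Svs3b* and *Pate4* were then called for PCa against WT and no member for PIN, beside 2.22% of all genes called higher in PCa (4.52% in either direction) and 0% for PIN. WT 1 is the WT library in which these genes were high, and nothing is read from the calls. *Sva* could not be fitted there, since it failed the filter on low counts.

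In the PIN libraries most members had low counts. Without WT 1, all 3 PIN libraries were above WT 2 and WT 3 for 7 members and for 14.9% of all genes, from which nothing is read. For *Svs6* 1 PIN library was above them and for *Sva* none was. The mean of the PIN libraries was at least 124-fold above the WT 2 and WT 3 floor for *Svs3b*, at least 93.2-fold for *Svs3a* and at least 10.5-fold for *Svs2*, and the lowest PIN library was at least 40.9-fold, 20.7-fold and 5.93-fold above it in the same order. PIN 2 was the highest PIN library for each of the 6 *Svs* genes of chromosome 2 and the lowest for *Pate4* and *Spinkl*. *Svs4* rested mostly on PIN 2, with 324 counts against 3 in PIN 1 and 10 in PIN 3.

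Per length, the order of the members differed from library to library. In CPM per kb of summed exon length, *Svs2* (5648) and *Svs5* (4250) led in WT 1, followed by *Pate4* (1032) and *Svs4* (668), with *Svs3b* last at 28.6. In PCa 1 *Svs5* (1031) and *Svs2* (1020) were level and *Svs3a* came next at 810, whereas *Svs4* was at 35.0 and *Sva* at 0.247. In PCa 2 *Pate4* (561), *Svs3b* (304) and *Svs3a* (158.8) led, and *Svs2* was at 4.15, next to *Sva* at 4.90. On average over the PIN libraries *Spinkl* (55.7 ± 30.3, SD, n = 3) and *Pate4* (52.4 ± 33.1) led, although in PIN 2 *Svs4* (15.3) was just above *Pate4* (14.9). They did not differ beyond their spread, and neither did *Svs3b* (6.03 ± 3.97), *Svs4* (5.31 ± 8.62) and *Svs3a* (4.72 ± 4.35). In PCa, with 2 libraries, the SD was larger than the mean for *Svs2* (512 ± 719), *Svs5* (530 ± 708), *Svs6*, *Sva* and *Spinkl* (173 ± 245), whereas *Svs3b* (306 ± 3.15) was at nearly the same level in both tumors. The split of reads between *Svs3b* and *Svs3a* is uncertain, and the sum of the pair was higher in PCa 1 than in PCa 2, with *Svs3a* at 30217 and 5556 counts and *Svs3b* at 11979 and 11080 counts.

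The makeup of the secretory transcripts differed between the 2 tumors and from WT 1. *Svs2* made up 71.1% of the members' counts in WT 1 (95% Wilson interval 71.0% to 71.3%), 45.7% in PCa 1 (45.4% to 46.0%) and 0.650% in PCa 2 (0.573% to 0.737%). *Pate4* made up 6.98% in WT 1, 2.49% in PCa 1 and 47.2% in PCa 2 (46.7% to 47.7%). In the PIN libraries its share was 55.8%, 22.6% and 63.0%. *Svs3a* and *Svs3b*, whose split is uncertain but whose sum is less so, together took 0.571% of the chromosome 2 members' counts in WT 1, 33.0% in PCa 1 and 85.8% in PCa 2, and 83.2%, 58.9% and 89.4% in the PIN libraries. *Svs3a* was at 0.00424 counts per *Svs2* count in WT 1, 0.480 in PCa 1 and 23.2 in PCa 2.

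**Figure D2:**
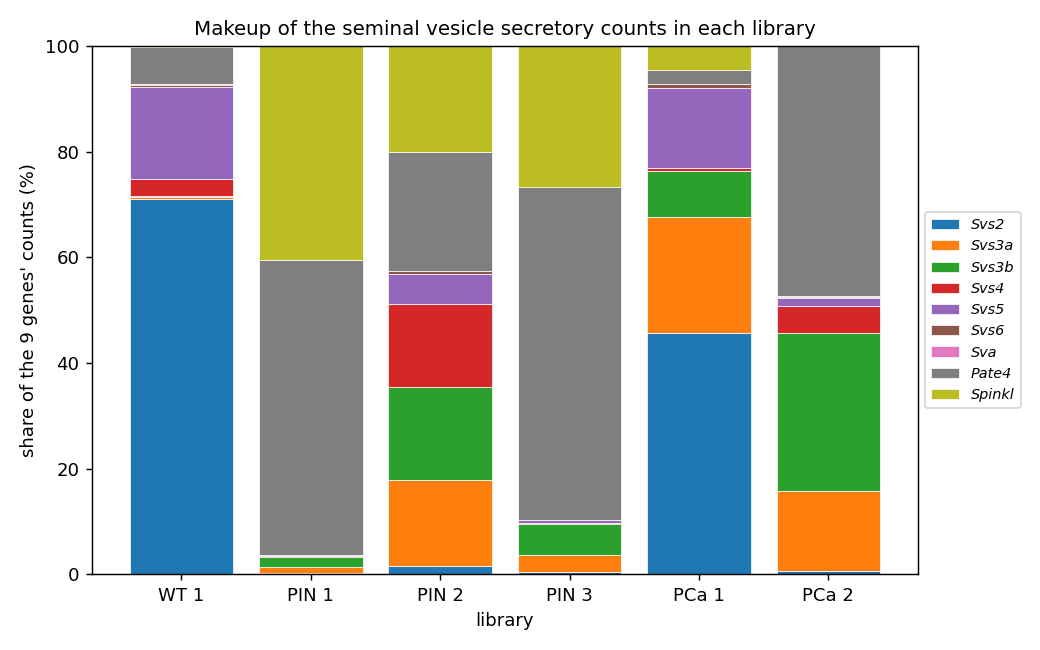
Share of each gene in the summed counts of the 9 genes, in percent, for the 6 libraries with more than 21 member counts, with 1 stacked bar for each library. *Svs2* fills 71.1% of the WT 1 bar and 45.7% of the PCa 1 bar but 0.650% of the PCa 2 bar, where *Pate4* takes 47.2%.

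The pairs with near-identical promoters differed in how evenly they were expressed. The ratio of *Svs3a* to *Svs3b* counts lay between 0.501 in PCa 2 and 2.52 in PCa 1, with 1.33 in WT 1 and 0.507, 0.922 and 0.556 in the PIN libraries. *Svs5* held 38.6 counts for each *Svs6* count in WT 1, 16.5 in PCa 1, 9.36 in PCa 2 and 9.50 in PIN 2. Per length that was still 31.9 times more *Svs5* in WT 1 and 7.75 times more in PCa 2. The upstream sequences of *Svs5* and *Svs6* printed above differ at few positions, and the levels of their transcripts differed in every library with over 10 counts of *Svs6*.

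**Figure D3:**
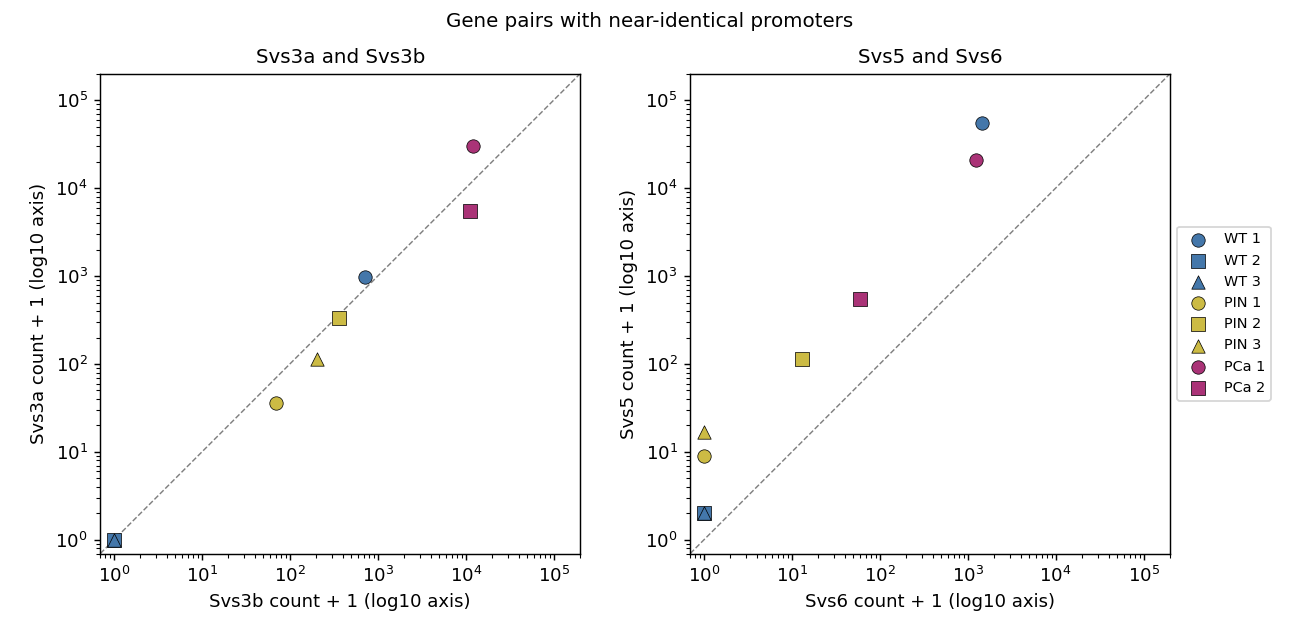
Counts plus 1 of *Svs3a* against *Svs3b* (left) and of *Svs5* against *Svs6* (right), on log axes, with 1 point for each library and a dashed line of equality. The left pair stays near the line, with ratios from 0.501 to 2.52, while every library lies above the line on the right, by 38.6 times in WT 1.

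Across the 8 libraries most members of the cluster ranked the libraries alike, and *Svs6* less so. Spearman's rho was 1.00 for *Svs3a* and *Svs3b*, 0.994 for *Svs2* and *Svs5* and 0.970 for *Svs2* and *Svs4*, and it was between 0.761 and 0.835 for *Svs6* with the other genes of the cluster. *Pate4*, outside the cluster, reached 0.929 with *Svs4*. *Spinkl* stood apart, with values from 0.171 to 0.524 with the other members. These values describe 8 libraries, and the 2 libraries without signal and the shared depth of each library bear on all of them.

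Among the genes around the cluster, *Wfdc12* was higher in both tumors than in any other library and near 0 in WT 1, and 5 of the other neighbours tested differed less between libraries. Of the 20 genes within 200 kb of it, 9 were tested, and 0 were called for PIN against WT by edgeR (0 at an unadjusted p under 0.05, and 0 called by DESeq2), 1 for PCa against WT and 1 for PCa against PIN. Over all genes tested 8.54% were called for PCa against WT and 5.72% for PCa against PIN, and 1 of 9 neighbours is near these shares. Both calls were *Wfdc12*, for a small secreted protein of the whey acidic protein family, 45.3 kb from *Svs2*, at 0.198, 0 and 0.0366 CPM in WT, 1.33, 0.0689 and 2.03 CPM in PIN and 574 and 21.3 CPM in PCa. *Wfdc12* had a log2 fold change of 11.91 ± 1.99 against WT (adjusted p = 0.0157, Benjamini-Hochberg, from the edgeR quasi-likelihood test) and 8.02 ± 1.61 against PIN (adjusted p = 0.0339). Without WT 1 it was 13.56 ± 2.76 against WT (adjusted p = 0.0496 by edgeR), without PCa 1 it was 8.09 ± 1.52 (adjusted p = 0.0128 by edgeR) and without PCa 2 it was 12.87 ± 1.33 (adjusted p = 0.00451 by edgeR). The call against PIN was lost in the 2-group model (adjusted p = 0.0925 by edgeR) and when WT 1, WT 3, PIN 1, PIN 2, PIN 3 or PCa 1 was left out (adjusted p from 0.0545 to 0.126 by edgeR), with a log2 fold change of 4.23 without PCa 1 (8.999 without PCa 2), and the call against WT was lost in the 2-group model and without WT 3 (adjusted p = 0.0652 and 0.0745 by edgeR). It lies within the span of the gene *A730032A03Rik*, and reads where both overlap are uncertain. *Wfdc15b*, of the same family, was highest in PCa 2 at 131.5 CPM, against 5.54 CPM in PCa 1 (6.04 ± 1.91 against WT, adjusted p = 0.0913 by edgeR, and 10.02 ± 2.23 without WT 1, adjusted p = 0.0584 by edgeR). PCa 2 decided this value, which was 2.41 without PCa 2 (adjusted p = 0.423 by edgeR) and 7.003 without PCa 1 (adjusted p = 0.0282 by edgeR), and DESeq2 called the gene (adjusted p = 0.0118). Those 5 neighbours were *Stk4* at 51.2 to 101 CPM, *Pigt* at 61.4 to 128 CPM, *Tomm34* at 28.6 to 44.1 CPM, *Sys1* at 13.03 to 27.3 CPM and *Dbndd2* at 1.68 to 2.27 CPM over all libraries. *Sdc4*, for the cell surface proteoglycan syndecan-4, was at 338 CPM in PCa 1 and at 96.3 to 163 CPM elsewhere, and *Slpi*, for a secreted inhibitor of leukocyte proteases, was at 24.2 CPM in PCa 1 and at most 5.30 CPM elsewhere. The median log2 fold change of the 9 neighbours was 0.47 against WT (0.39 without WT 1) and 0.48 against PIN.

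**Figure D4:**
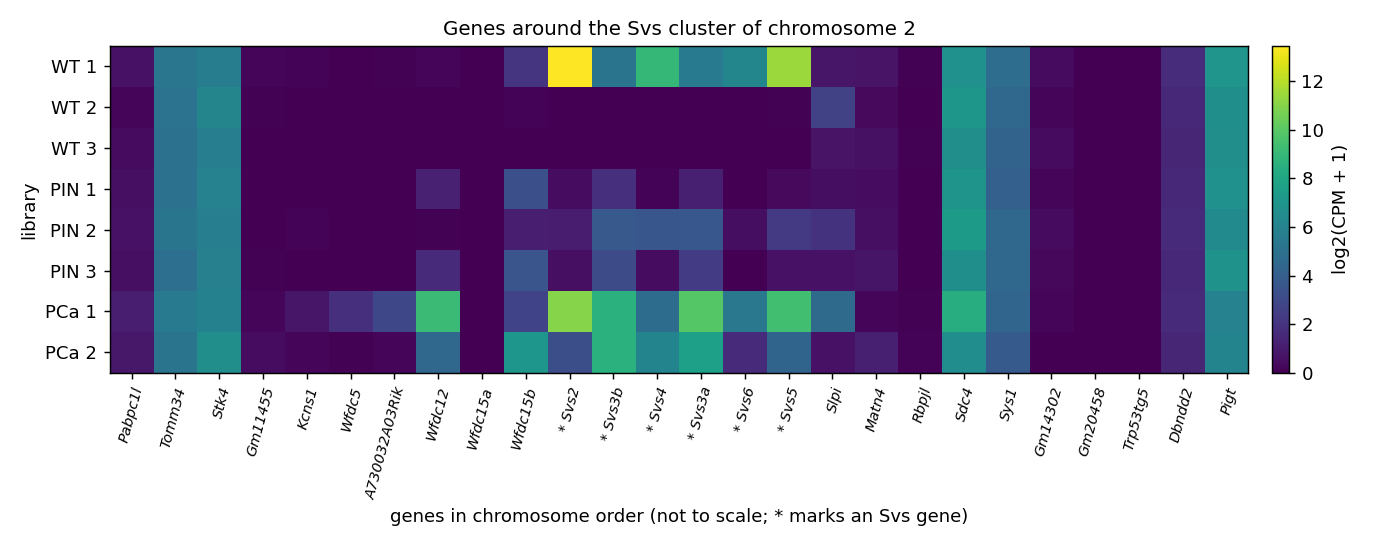
Levels of the genes along the chromosome 2 cluster in each library, shown as log2(CPM + 1) in colour, with genes in their order on the chromosome. All 6 *Svs* genes are brighter in WT 1 and PCa 1 than in PIN, WT 2 and WT 3. Some of them, such as *Svs4* in PCa 1 (25.6 CPM), are dimmer than *Stk4* (51.2 to 101 CPM). *Svs3a* and *Svs3b* are the brightest of the *Svs* genes in PCa 2. *Wfdc12* is bright in PCa 1 (574 CPM) and not in WT 1 (0.198 CPM), and genes such as *Stk4* are even across libraries.

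Genes of the other members' neighbourhoods were on the list of relatives and partners. In the region of *Spinkl* on chromosome 18, *Spink5*, a protease inhibitor of epithelia, held 72528 counts in PCa 1 and 72 in PCa 2, and *Spink11* held 819 and 0, where *Spinkl* held 6388 and 1. *Spink12*, which lies between *Spink5* and *Spinkl*, held 5 and 0 counts and was not tested. In PIN 1, PIN 2 and PIN 3 *Spink5* held 18088, 97 and 2196 counts, so that PIN 2 was again the lowest PIN library. Near *Sva* on chromosome 6 the tumors went the other way, with *Pip*, for the prolactin-inducible protein, at 12831 counts in PCa 1 and 0 in PCa 2, and *Sval2* at 198 and 0, against 5 and 93 for *Sva*. *Pate2*, whose span on chromosome 9 encloses *Pate4* so that reads where both overlap are uncertain, was at 76.8 CPM in PCa 1 and 7.23 CPM in PCa 2, also the reverse of *Pate4*.

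The enzyme that acts on the SVS proteins was low in the tumors. *Tgm4* was at 42279, 59729 and 41969 CPM in WT, at 34902, 40361 and 52511 CPM in PIN and at 56.0 and 373 CPM in PCa. Its log2 fold change in PCa was −7.81 ± 1.19 against WT (adjusted p = 0.0123 by edgeR) and −7.63 ± 1.19 against PIN (adjusted p = 0.0179 by edgeR). Without WT 1 it was −7.89 ± 1.36 against WT (adjusted p = 0.0358 by edgeR). Without PCa 1 it was −6.996 against WT and −6.82 against PIN, and without PCa 2 it was −9.73 and −9.55. The call against PIN was lost with a replicate block, in the 2-group model and when WT 3 or any PIN library was left out (adjusted p from 0.0534 to 0.0697 by edgeR), and the call against WT was lost in the 2-group model (adjusted p = 0.0997 by edgeR). WT 1 did not stand apart from WT 2 and WT 3 for this gene. Of the 24 relatives and partners listed, 19 were in the table and 12 were tested, and *Tgm4* was the only call of edgeR in either PCa comparison. This 1 of 12 is near the share over all genes tested, 8.54% against WT and 5.72% against PIN. None was called for PIN against WT, with 2 at an unadjusted p under 0.05 and 0 called by DESeq2.

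Other seminal vesicle products had unlike patterns, with *Svs1*, *Spink3* and *Ceacam10* higher in WT 1 than in both tumors. *Svs1* had 4387 counts in WT 1, 0 in PCa 1 and 2 in PCa 2. *Spink3*, an inhibitor of trypsin secreted by the seminal vesicle, was at 3596 CPM in WT 1 and 0 in WT 2 and WT 3, at 56.0, 0.0344 and 9.27 CPM in PIN and at 0.772 and 0.103 CPM in PCa 1 and PCa 2. PIN 2 held 1 count of it and PCa 2 held 3 counts, too few to order these libraries. *Ceacam10*, for a secreted protein of the seminal vesicle, was at 62.9 CPM in WT 1, at 30.6, 2.76 and 16.9 CPM in PIN and at 5.89 and 6.03 CPM in PCa. *Serpine2*, for a protease inhibitor of seminal vesicle fluid, was lower in each WT library than in both tumors, at 241 to 294 CPM in WT, at 1162, 278 and 669 CPM in PIN and at 599.6 and 830 CPM in PCa, and *Spink8* was at 21.5 to 97.5 CPM in WT, at 52.1 to 109 CPM in PIN and at 22.8 and 231 CPM in PCa. *Sbp*, which was not on the list of seminal vesicle relatives and partners, was high in PCa 1 and WT 1. It was at 5784 and 9552 CPM there, against 76.2 CPM in PCa 2.

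**Figure D5:**
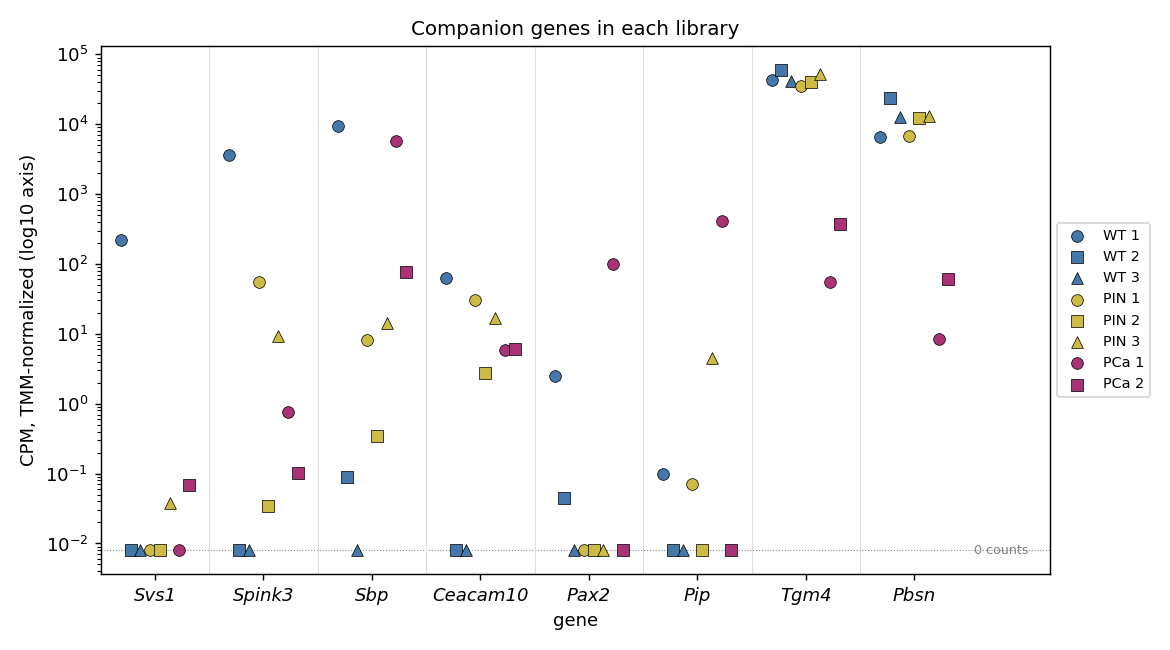
Levels of genes named beside the members, on a log axis of CPM, with 1 point for each library coloured by group and libraries at 0 counts on the dotted line. *Tgm4* and *Pbsn* are high in all WT and PIN libraries and lower in both PCa libraries (56.0 and 373 CPM for *Tgm4*), while *Svs1* is at 217 CPM in WT 1 and at most at 0.0686 CPM elsewhere.

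Markers of the tissues that could be present moved with the members in part. The 3 Wolffian duct genes summed to 0.272 to 8.50 CPM in WT, 0.264 to 2.14 CPM in PIN and 0.0343 to 100.4 CPM in PCa. Nearly all of the PCa 1 sum was *Pax2* at 99.7 CPM, whereas *Pax2* and *Pax8* had 0 counts in PCa 2 and in every PIN library, which allows up to 0.103 CPM in PCa 2. *Emx2* had 1 count in PCa 2 and 7 to 62 counts in the PIN libraries. *Pbsn*, for the prostate product probasin, was at 6552, 23968 and 12752 CPM in WT, at 6690, 12353 and 13097 CPM in PIN and at 8.53 and 60.8 CPM in PCa. The 5 genes of epididymis or vas deferens summed to 14.3 CPM in WT 1 and at most 0.366 CPM in the other WT libraries, to 0.551 to 33.8 CPM in PIN and to 15.3 and 0.377 CPM in PCa, with *Lcn5* and *Cst8* at 1 count or less in every library.

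Stroma also differed. The 5 smooth muscle genes summed to 1911 to 4620 CPM in WT, 3027 to 5421 CPM in PIN and 41.2 and 17.9 CPM in PCa. The 5 luminal epithelial genes summed to 2987 to 9824 CPM in WT, 3900 to 4352 CPM in PIN and 5020 and 2619 CPM in PCa, and the 4 basal genes to 167 to 216, 178 to 387, and 604 and 27.4 CPM. Fibroblast genes (5) summed to 490 to 837, 658 to 811, and 675 and 259 CPM, leukocyte genes (5) to 115 to 331, 99.8 to 288, and 542 and 40.1 CPM, and endothelial genes (3) to 10.01 to 59.8, 55.04 to 66.3, and 81.0 and 78.7 CPM. The part of any of these tissues in the levels of the members was not tested.

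By Pearson's r between log2 CPM and the mean of the members' centred values over 8 libraries, the 5 nearest of the other genes tested were *Pik3r6* (0.962), *Rxra* (0.948), *Acaa2* (0.946), *Lrrc14* (0.942) and *Sbp* (0.939). *Sbp* is the gene of this set with a range like that of the members. *Rxra* ranged from 25.3 to 55.2 CPM and *Lrrc14* from 11.4 to 18.1 CPM, whereas *Sbp* ranged from 0 to 9552 CPM.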

How the data were processed

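Ribosomal RNA-depleted, paired-end libraries from 3 WT prostates, 3 PIN and 2 PCa tissues were used. The authors trimmed reads with cutadapt 1.9.1, aligned them to mm9 with HISAT2 2.1.0 and counted them per gene with HTSeq 0.6.1, and the deposited values are raw counts with a summed exon length per gene. The strand setting is not given in the sources used here. The 9 members, the gene lists and the rule for naming genes were chosen with earlier results of these data known. All members were named, and genes of the neighbour and partner lists were named if called or at 1 percent or more of the members' summed level in WT 1 or in any PIN or PCa library. *Sval2*, *Spink12* and *A730032A03Rik*, below that level, were named after their values were seen. The analysis used edgeR 4.0.16 in R 4.3.3 (TMM scaling, CPM above 1 in at least 2 samples, quasi-likelihood F-test, all 8 libraries in 1 model with 3 groups and 5 residual degrees of freedom, Benjamini-Hochberg adjustment). Calls needed a log2 fold change beyond 1 in either direction with adjusted p under 0.05. Levels per length are CPM per kb of exon. The test was tested on simulated data. Alternatives were DESeq2 1.42.0, upper-quartile scaling, no filter, a replicate block, 2-group models, TPM, each library left out and, added after seeing the data, *Svs3a* and *Svs3b* summed. Sequences were compared with Biopython 1.88. Libraries were taken to differ in animal, and 3 counts were taken as the limit that 0 counts allow. The level of some marker genes is not reported here.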

Additional observations from a re-analysis of the deposited data

How the results depend on the processing

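Few libraries and 1 WT library that decides the WT mean limit these results. Genes called for PIN against WT rose from 0 to 39 with DESeq2. For PCa against WT, 1198 genes became 2487 with DESeq2, 123 in 2-group models and 347 to 2477 when 1 library was left out; for PCa against PIN, 803 became 1984, 359 and 78 to 2251. Members called were 0 to 3 for PCa against WT (3 without WT 1) and 0 to 1 for PCa against PIN (1 without WT 1) when 1 library was left out, and 1 (*Svs3b*) in the 2-group model of PCa against PIN. Without WT 1, 628 of all 13899 genes tested were called for PCa against WT and 491 for PCa against PIN. That 2-group model called 359 of 14034 genes, and nothing is read from the members' counts. Locus neighbours called for PCa against WT were 2 with DESeq2, 0 in the 2-group model and 0 to 2 when 1 library was left out, and for PCa against PIN 0 in the 2-group model and 0 to 2. Relatives and partners called for PCa against WT were 3 with DESeq2, 0 in the 2-group model and 1 to 5 when 1 library was left out, and for PCa against PIN 2, 0 and 0 to 4. The summed level per length of the members, 3970 in WT, 127 in PIN and 2443 CPM per kb in PCa, became 12609, 430.2 and 9406 as TPM, a different scale on which PCa was 21.9 times PIN against 19.2 times.

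Replicate numbers were not taken to mark shared animals. Deviations of libraries with the same number had a mean correlation of 0.0992 (−0.0562 to 0.284 over 7 pairs), against −0.0505 over 14 pairs with different numbers. Not every pair was above 0.1, and the samples were taken to share only a number. A replicate block gave 413 genes called for PCa against WT, 151 for PCa against PIN and 0 relatives and partners for PCa against PIN. With the replicate block the log2 fold change turned sign for PIN against WT in *Svs3a* (2.47), *Svs3b* (2.09) and *Pate4* (0.71), for PCa against WT in *Svs2* (0.58), *Svs5* (0.77), *Svs6* (0.10) and *Pate4* (4.83), and for PCa against PIN in *Spinkl* (−4.56). For PCa against PIN it lowered *Svs2* to 2.51 and *Svs5* to 1.99. For PIN against WT it moved *Svs2* to −1.93, *Svs4* to −3.08, *Svs5* to −1.23 and *Spinkl* to 7.01.

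When 1 library was left out, WT 1, PCa 1 and PCa 2 turned the sign of member values. The PIN to WT log2 fold change ranged from −13.16 to 7.15 for *Svs2*, −2.51 to 10.29 for *Svs3a*, −1.24 to 10.70 for *Svs3b*, −9.38 to 7.31 for *Svs4*, −11.00 to 5.17 for *Svs5*, −12.29 to 4.999 for *Svs6* and −3.30 to 6.43 for *Pate4*, with the highest value of each from the fit without WT 1. The PCa to WT value ranged from −8.82 to 17.78 for *Svs2*, −2.66 to 10.85 for *Svs4*, −5.59 to 12.90 for *Svs5*, −3.54 to 12.19 for *Svs6* and −1.72 to 9.09 for *Pate4*, again highest without WT 1, and from −8.24 (without PCa 1) to 12.01 (without WT 1) for *Spinkl*. The PCa to WT value kept its sign for *Svs3a* (3.60 to 16.97) and *Svs3b* (4.42 to 16.37), and both were highest without WT 1. For PCa against PIN, *Spinkl* ranged from −9.71 (without PCa 1) to 2.66 (without PCa 2). *Pate4* also turned to 0.71 against WT without PCa 1, and *Svs6* to 0.78 without PCa 2. For PCa against PIN, *Svs2* ranged from 3.69 to 11.64 and *Svs5* from 3.56 to 9.58, with the lowest value of each without PCa 1. Fitted values against libraries at 0 depend on the prior count and are no bounds. Of 348 member values under the alternatives, 24 turned sign. Summing *Svs3a* and *Svs3b*, chosen after seeing the data, gave −1.07 for PIN against WT, 5.12 for PCa against WT and 6.19 for PCa against PIN and changed no call.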

Other observations

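Secreted products outside the member list also differed between the 2 tumors. *Ltf*, for the iron-binding protein lactoferrin, was at 1382 CPM in PCa 1 and at most 11.3 CPM in every other library. *Clu*, for the secreted chaperone clusterin, was at 282, 47.7 and 24.2 CPM in WT, at 1611, 47.4 and 64.2 CPM in PIN and at 2670 and 844 CPM in PCa, so that PIN 1 lay between the PCa libraries. *Adam7*, a gene of the epididymis, was at 33.7 CPM in PIN 3 and 9.54 CPM in PIN 1, against 0.138 CPM in PIN 2, the same order of the PIN libraries as for *Pate4*. None of these genes was called in any comparison by edgeR with all libraries.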
